A study of Mus musculus with 48 samples.

Results

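Polyamines are made from arginine by a short chain of enzymes, and the 9 genes described here cover that chain: Arg1, Arg2, Odc1, Azin1, Oaz1, Amd1, Srm, Sms and Sat1. They were chosen by name, as the rows of both expression tables whose gene identifier maps to those symbols. All 9 were found among the 34183 genes listed in each table.

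Arginase, encoded by Arg1 in the cytosol and Arg2 in mitochondria, splits arginine into urea and ornithine, and ornithine decarboxylase (Odc1) turns ornithine into putrescine, the step that commits ornithine to polyamines. Amd1 encodes S-adenosylmethionine decarboxylase, which supplies the aminopropyl groups that spermidine synthase (Srm) and spermine synthase (Sms) add to putrescine in turn, while the acetyltransferase encoded by Sat1 marks spermidine and spermine for export or breakdown. Antizyme (Oaz1) binds ornithine decarboxylase and delivers it to the proteasome, and the antizyme inhibitor (Azin1), an inactive relative of the decarboxylase, ties antizyme up. In sensory neurons arginase 1 and polyamines are known for their link to axon growth after injury.

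The samples were RNA libraries from primary cultures of dorsal root ganglia (DRG), where the cell bodies of sensory neurons lie, taken from adult wild-type mice. Cells were dissociated, transfected at once and harvested 42 h later. In the first table, a pool of siRNAs against 1 injury-responsive factor was given: siAtf3, siAtf4, siJun, siStat3, siKlf6, siRest or siAlyref, set against the control pool siCONTROL, and siCONTROL was itself set against untransfected cells at time 0 (t_0). In the second table, cells received synthetic Atf4 and Cebpg mRNA together, Atf4 mRNA alone, or GFP mRNA as the control. All 12 groups are wild type and hold 4 libraries each. The labels do not say whether the libraries of a group come from separate animals or cultures, and the p-values given here reflect variation among libraries that may be technical.

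Library totals ran from 1539198 to 6621566 expected counts. Each siRNA lowered its own target, to between 16.8% (Atf4) and 36.3% (Rest) of siCONTROL, and Atf4 mRNA raised Atf4 22.0-fold over GFP mRNA, with the synthetic transcript counted in the same gene. Summed levels of 10 neuronal markers were high in every group, but glial transcripts were present throughout, so these are mixed cultures. In such bulk samples fewer cells of a type and less RNA per cell cannot be told apart.

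Promoter sequence was in hand for 5 of the 9 genes, and a pair of them is shown because Odc1 and Sat1, which make and mark polyamines for removal, moved in opposite directions under siAtf3. These are the 250 bases before the annotated start (RefSeq, GRCm38.p6), read on the gene's own strand. Odc1 is on the plus strand at chr12:17544623-17544872 and Sat1 on the minus strand at chrX:155216450-155216699, and capitals mark the GC box, GGGCGG or its reverse complement CCGCCC.
Odc1: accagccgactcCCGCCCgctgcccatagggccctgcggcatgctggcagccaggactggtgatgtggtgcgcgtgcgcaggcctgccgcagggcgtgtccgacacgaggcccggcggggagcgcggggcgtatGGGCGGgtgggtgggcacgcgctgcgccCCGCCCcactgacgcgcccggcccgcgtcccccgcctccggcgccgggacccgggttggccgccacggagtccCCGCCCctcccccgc
Sat1: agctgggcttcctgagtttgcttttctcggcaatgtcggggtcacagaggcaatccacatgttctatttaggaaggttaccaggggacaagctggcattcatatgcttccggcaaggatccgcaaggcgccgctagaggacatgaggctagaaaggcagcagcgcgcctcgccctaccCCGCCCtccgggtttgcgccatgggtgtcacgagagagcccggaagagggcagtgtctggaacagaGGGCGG
The Odc1 window is 80.0% G or C and holds 4 GC boxes, against 59.6% and 2 in the Sat1 window and a median of 52.4% over all 32851 promoters in the table, read over the same length. The GC box is present in 32.7% of those promoters. The AP-1 motif TGANTCA (6.75% of promoters), the cAMP response element TGACGTCA (1.55%), the C/EBP-ATF element TGATGNAA (3.45%) and the E-box CACGTG (6.02%), each searched on both strands, had 0 matches in the windows of Odc1, Sat1, Amd1 and Oaz1. For Sms, which has 2 annotated starts, 1 window held 1 E-box and the other held 4 GC boxes.

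Oaz1 carries the best known control element of the family, a stop codon that ribosomes pass by shifting frame when polyamines are abundant. The 30 bases around it, from 1 of 6 annotated protein-coding transcripts of GENCODE on GRCm38 (chromosome 10), are shown with the shift site TCCTGAT in capitals. That step acts on translation and is not measured by RNA levels.
Oaz1: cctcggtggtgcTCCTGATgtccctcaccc

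Levels are given as CPM, the deposited value scaled to the size of its library, which appear to be weighted by transcript length and so allow a rough comparison between genes. In siCONTROL cultures antizyme was the most abundant of the 9, with a mean of 675.7 ± 43.5 CPM (SD, n = 4, as for all means below). The inhibitor and the enzyme followed, Azin1 at 339.5 ± 33.2 CPM and Odc1 at 285.0 ± 15.5 CPM, and then Sat1 at 145.0 ± 13.2 CPM. Sms (97.8 ± 8.21 CPM), Srm (94.4 ± 12.1 CPM) and Amd1 (78.6 ± 9.98 CPM) lay close together with overlapping libraries. Both arginases were near the detection limit, Arg1 at 2.16 ± 1.29 CPM and Arg2 at 1.64 ± 1.55 CPM. Arg2 rested on 3 to 17 expected counts per library.

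**Figure D1:**
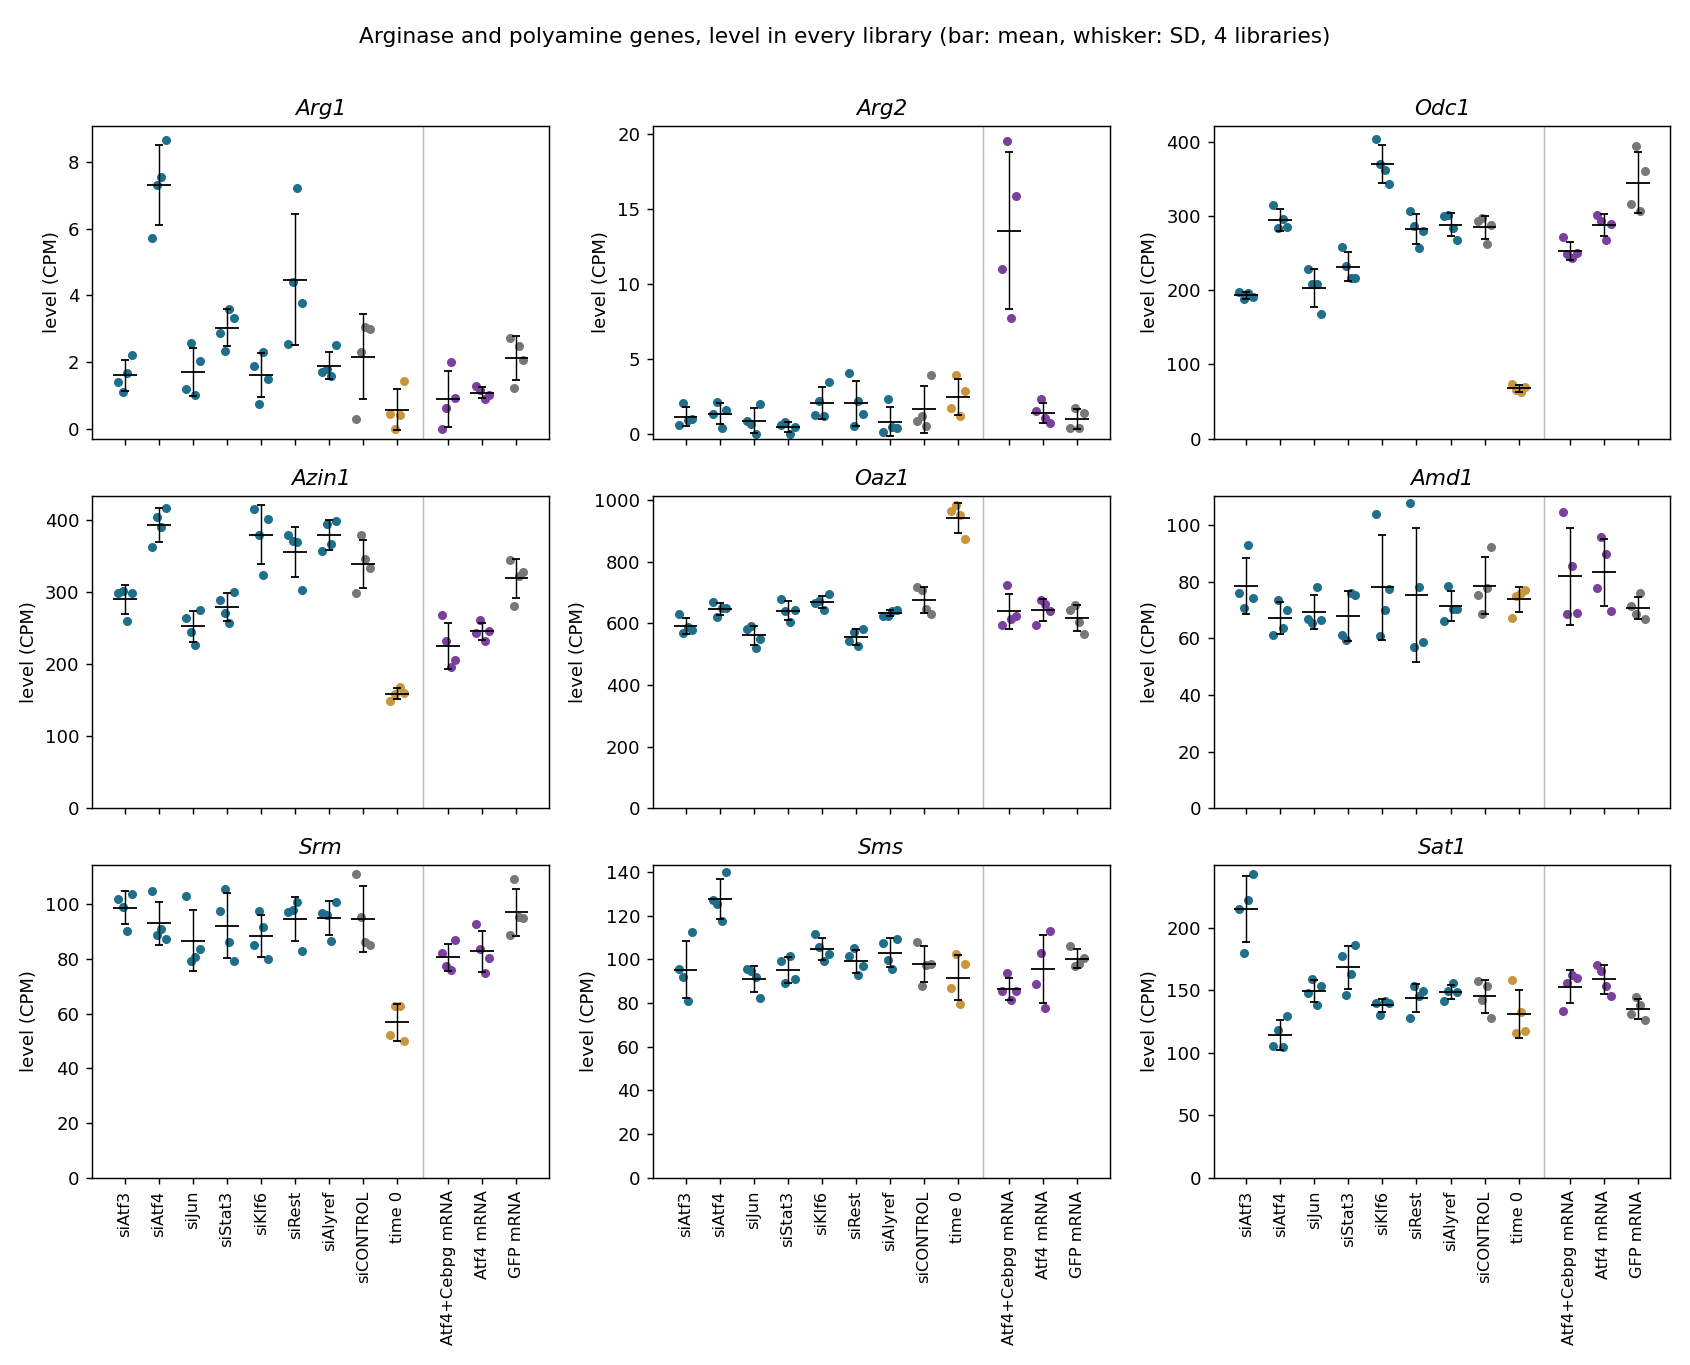
Level in CPM (vertical axes, linear) of the 9 genes in each of the 48 libraries, by group; dots are libraries, bars means and whiskers SDs over 4 libraries, and the grey line parts the 2 tables, which were scaled separately. Odc1 and Azin1 are lowest at time 0, Arg1 is highest in siAtf4 cultures and Arg2 in cultures given Atf4 and Cebpg mRNA.

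Ornithine decarboxylase mRNA differed more between siCONTROL cultures at 42 h and t_0 cells than between any knockdown and siCONTROL. The siCONTROL cells had been both cultured for 42 h and transfected, unlike the t_0 cells. No group was cultured for 42 h without transfection, and the part of each in these differences was not tested. In siCONTROL cultures at 42 h, 4 of the 7 members tested had changed relative to t_0: Odc1, Azin1 and Srm rose and Oaz1 fell. Over all 13448 genes tested 57.9% were called in this comparison, where called means an adjusted p under 0.05 in edgeR's quasi-likelihood test with Benjamini-Hochberg adjustment over all genes, so a share of 4 in 7 is near the background. Odc1 (ENSMUSG00000011179.9) had 293, 297, 262 and 287 CPM in siCONTROL libraries and 73.3, 65.2, 62.2 and 69.2 CPM in t_0 libraries. The lowest siCONTROL library was over 3 times the highest t_0 library. The log2 fold change was 2.07 ± 0.08 (SE), a 4.21-fold difference (edgeR adjusted p = 4.76e-09), ranked 59 among 13448 genes by p.

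The partners of the enzyme moved in opposite directions. Azin1 (ENSMUSG00000037458.16), the antizyme inhibitor, had 299, 380, 346 and 333 CPM in siCONTROL libraries and 149, 159, 169 and 160 CPM in t_0 libraries, a 2.13-fold rise (log2 1.09 ± 0.08, edgeR adjusted p = 7.25e-07). Oaz1 (ENSMUSG00000035242.16), antizyme, had 718, 707, 648 and 630 CPM in siCONTROL libraries and 963.5, 983, 951 and 872 CPM in t_0 libraries, and fell to 71.5% (log2 -0.48 ± 0.07, edgeR adjusted p = 7.92e-05). Neither gene's groups overlapped. Srm (ENSMUSG00000006442.11), spermidine synthase, had 111, 95.3, 86.2 and 85.0 CPM in siCONTROL libraries and 52.2, 62.6, 62.6 and 49.8 CPM in t_0 libraries, a 1.65-fold rise (edgeR adjusted p = 0.00024).

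The other members gave no call. Amd1, Sms and Sat1 differed between siCONTROL and t_0 libraries by log2 0.08 ± 0.10, 0.08 ± 0.10 and 0.14 ± 0.11, with overlapping groups. Both arginases were too low to pass the filter in this comparison, and tested without it Arg1 gave log2 1.95 ± 0.84 (edgeR adjusted p = 0.0873) and Arg2 gave log2 -0.57 ± 0.63 (edgeR adjusted p = 0.488). Markers of several cell types differed at the same time. The summed level of 8 satellite glia markers was 743 to 872 CPM in siCONTROL libraries and 4528 to 5597 CPM in t_0 libraries, that of 8 Schwann cell markers 1249 to 1478 CPM against 1968 to 2346 CPM, and that of 10 neuronal markers 12145 to 14597 CPM against 17242 to 18363 CPM, and 0 of these markers were at 0 throughout a group. The 8 endothelial and mural markers summed to 212 to 269 CPM in siCONTROL libraries and 150 to 196 CPM in t_0 libraries, and the 7 neutrophil markers to 10.4 to 13.7 CPM against 0 to 2.86 CPM, with Mpo, Elane and Ly6g at 0 in t_0 and Elane at 0 in siCONTROL libraries. Mitochondrially encoded transcripts, read as a sign of RNA quality, summed to 20287 to 29476 CPM in siCONTROL libraries and 44756 to 52432 CPM in t_0 libraries, and 8 of the 9 were called lower. In none of these 6 lists did the groups overlap. Of the 8 satellite glia markers 4 were called lower and 2 higher. The 14 macrophage markers overlapped in sum, at 31.8 to 48.1 CPM in siCONTROL and 22.1 to 41.8 CPM in t_0 libraries. Of the 5 macrophage markers tested 2 were called higher and 2 lower. Cd68 averaged 30.4 CPM in siCONTROL and 0.84 CPM in t_0 libraries, and C1qa 0 and 3.89 CPM. The part of these shifts in the results above was not tested.

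**Figure D2:**
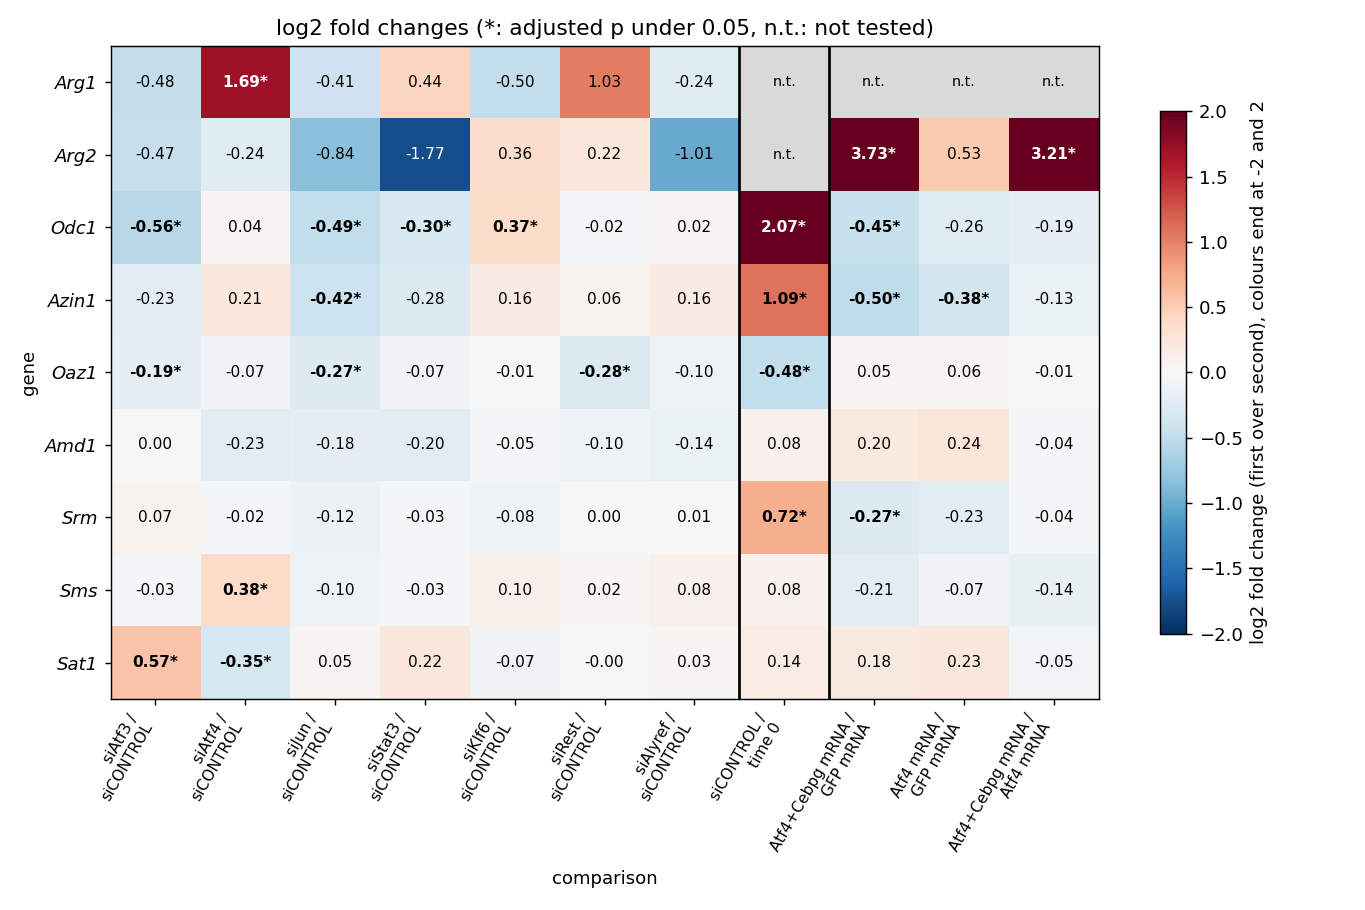
Fitted log2 fold changes of the 9 genes (rows) in 11 comparisons (columns, first group over second); colour runs from -2 (blue) to 2 (red), an asterisk marks an adjusted p under 0.05 and n.t. a gene below the filter. Odc1 is called in 6 of the 11 columns and Amd1 in 0.

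Among the knockdowns, Odc1 was lower with siAtf3, siJun and siStat3 and higher with siKlf6 than with siCONTROL. In the siAtf3 comparison 3 of 9 members were called, Sat1 higher and Odc1 and Oaz1 lower, where 11.5% of all 14876 genes were called. Odc1 had 198, 187, 196 and 191 CPM in siAtf3 libraries, against 293, 297, 262 and 287 CPM in siCONTROL libraries. Every siAtf3 library was below every siCONTROL library. The log2 fold change was -0.56 ± 0.07, to 67.7% of siCONTROL (edgeR adjusted p = 2.86e-06).

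With siJun, 3 of 9 members were called, all lower, where 7.78% of all genes were called. Odc1 had 228, 208, 209 and 168 CPM in siJun libraries, all below the siCONTROL libraries, and stood at 71.4% of siCONTROL (log2 -0.49 ± 0.07, edgeR adjusted p = 4.71e-05). Azin1 had 265, 245, 226 and 276 CPM in siJun libraries, against 299, 380, 346 and 333 CPM in siCONTROL libraries, and fell to 74.5% (log2 -0.42 ± 0.08, edgeR adjusted p = 0.00123). Oaz1 had 583, 590, 521 and 551 CPM in siJun libraries, against 718, 707, 648 and 630 CPM in siCONTROL libraries, and fell to 83.2% (edgeR adjusted p = 0.000787). All 3 genes were therefore lower in every siJun library than in any siCONTROL library, enzyme, inhibitor and antizyme alike.

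siStat3 lowered Odc1 and no other member, with 3.03% of all genes called. Odc1 had 258, 233, 217 and 217 CPM in siStat3 libraries, all below the siCONTROL libraries (log2 -0.30 ± 0.07, edgeR adjusted p = 0.0182). That call was lost without siCONTROL replicate 2, siStat3 replicate 3 or siStat3 replicate 4 (edgeR adjusted p = 0.0718, 0.0819 and 0.083) and with the 2 groups fitted alone (0.0986). Azin1 in siStat3 libraries was 279.8 ± 19.2 CPM and did not pass (edgeR adjusted p = 0.0708).

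siKlf6 raised Odc1, the 1 member called where 1.85% of all genes were. Odc1 had 404, 370, 362 and 343 CPM in siKlf6 libraries, above every siCONTROL library, a 1.30-fold difference (log2 0.37 ± 0.07, edgeR adjusted p = 0.00427, and 0.0797 with the 2 groups fitted alone). The siKlf6 library with the highest Odc1 level was also the shallowest of the series, and without it the gene was still called (edgeR adjusted p = 0.022). Ordered by mean level, Odc1 was highest with siKlf6, whose libraries lay above all others of the first table. Next came siAtf4, siAlyref, siCONTROL and siRest, whose libraries overlap one another, followed by siStat3, siJun, siAtf3 and t_0. The highest siStat3 library reached the lowest siRest library, the siJun libraries overlap both siStat3 and siAtf3 libraries, and the t_0 libraries lie below all others.

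Antizyme mRNA was slightly lower with siAtf3 and siRest as well as siJun. Oaz1 had 543, 573, 526 and 580 CPM in siRest libraries, all below siCONTROL, and was the 1 member among the 30 genes called in that comparison (0.202% of those tested), at 82.2% of siCONTROL (edgeR adjusted p = 0.00697). That call was lost without siCONTROL replicate 1 or siRest replicate 3 (0.0564 and 0.066) and with the 2 groups alone (0.524). With siAtf3, Oaz1 had 630, 568, 588 and 578 CPM, 1 library reaching into the siCONTROL range, and stood at 87.5% of siCONTROL (edgeR adjusted p = 0.0107, and 0.0522 without siCONTROL replicate 2 and 0.0827 with the 2 groups alone). With siAlyref 0 of 9 members were called in edgeR, 0 with DESeq2 and 0 at an unadjusted p under 0.05, where 4.26% of all genes were called, and the smallest adjusted p of a member was 0.38, for Azin1.

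Sat1 (ENSMUSG00000025283.16), the acetyltransferase, rose with siAtf3 and fell with siAtf4. It had 215, 180, 222 and 243 CPM in siAtf3 libraries, against 157, 142, 153 and 128 CPM in siCONTROL libraries. The groups did not overlap, and the rise was 1.48-fold (log2 0.57 ± 0.09, edgeR adjusted p = 1.96e-05). In siAtf4 libraries Sat1 had 105, 118, 104 and 129 CPM, the highest of which reached the lowest siCONTROL library, and stood at 78.6% of siCONTROL (log2 -0.35 ± 0.09, edgeR adjusted p = 0.0106). That fall did not pass without siAtf4 replicate 3 (0.0579) or with the 2 groups alone (0.0542). In the other 5 knockdowns Sat1 lay within log2 -0.07 and 0.22 of siCONTROL and was not called.

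Markers also differed in the siAtf3, siJun and siStat3 comparisons. In siAtf3 libraries the 10 neuronal markers summed to 9683 to 11440 CPM and the 8 satellite glia markers to 538 to 683 CPM, both below all siCONTROL libraries (12145 to 14597 and 743 to 872 CPM). Of the 10 neuronal markers 7 were called lower. Of the 8 satellite glia markers 1 was called lower, and their median log2 fold change was -0.01. The 8 Schwann cell markers summed to 919 to 1082 CPM in siAtf3 libraries and 1249 to 1478 CPM in siCONTROL libraries. Of the 7 tested 1 was called lower, and their median log2 fold change was 0.03. The 14 macrophage markers summed to 24.6 to 31.0 CPM in siAtf3 libraries and 31.8 to 48.1 CPM in siCONTROL libraries, with 1 called lower and C1qa, Adgre1, Cx3cr1 and Fcer1g at 0 in siAtf3 libraries. The neutrophil markers were higher in sum, at 14.6 to 35.3 CPM in siAtf3 and 15.7 to 20.3 CPM in siJun libraries against 10.4 to 13.7 CPM in siCONTROL libraries, with 0 called in either and Elane at 0 in all 3 groups. In siJun libraries the satellite glia markers summed to 496 to 725 CPM, below all siCONTROL libraries. However, 1 of the 8 was called lower and 0 higher, and their median log2 fold change was 0.16, so the lower sum does not stand for the whole list. The neuronal markers summed to 10605 to 12542 CPM in siJun libraries and overlapped siCONTROL libraries, with 1 called higher and 2 lower. Their part in the member results was not tested.

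Arg1 (ENSMUSG00000019987.10) was highest where Atf4 was knocked down. In the siAtf4 comparison 3 of 9 members were called, Arg1 and Sms higher and Sat1 lower, where 6.91% of all genes were called. Arg1 had 5.72, 7.33, 7.56 and 8.66 CPM in siAtf4 libraries, from 34 to 49 expected counts each, and 0.297, 2.31, 3.05 and 2.99 CPM in siCONTROL libraries, from 1 to 18 expected counts. The groups did not overlap, although siCONTROL replicate 1 rested on 1 count. The rise was 3.23-fold (log2 1.69 ± 0.38, edgeR adjusted p = 0.00468), and the call held in 13 of 13 alternative settings, with log2 fold changes of 1.38 to 1.89.

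Arginase 1 is also a well known product of macrophages, so their markers were read beside it. The 14 macrophage markers summed to 32.9 to 51.1 CPM in siAtf4 libraries and 31.8 to 48.1 CPM in siCONTROL libraries, with overlap, 4 passed the filter and 0 of them were called. C1qa, C1qc and Ptprc were at 0 in all 8 libraries. Most of the sum was Cd68, a lysosomal protein, at 33.3 CPM on average in siAtf4 and 30.4 CPM in siCONTROL cultures. The 8 satellite glia markers summed to 612 to 740 CPM in siAtf4 libraries, just below the 743 to 872 CPM of siCONTROL libraries, and 0 of the 8 were called. The 10 neuronal markers summed to 12891 to 14468 CPM in siAtf4 and 12145 to 14597 CPM in siCONTROL libraries, with overlap, and 3 were called higher and 0 lower. The part of these values in the siAtf4 results was not tested.

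The Arg1 level was higher with siAtf4 than with 5 of the 6 other siRNAs when set against them directly. The exception was siRest, whose libraries had 2.54, 4.40, 7.22 and 3.76 CPM and overlapped those of siAtf4 (log2 0.66 ± 0.37 for siAtf4 over siRest, edgeR adjusted p = 0.316). The siRest libraries did not differ from siCONTROL by the test either (log2 1.03 ± 0.39, edgeR adjusted p = 0.609). For siAtf4 over siAtf3, siJun, siKlf6 and siAlyref the log2 fold changes were 2.17 ± 0.39, 2.10 ± 0.39, 2.19 ± 0.41 and 1.93 ± 0.39, with edgeR adjusted p between 9.77e-05 and 0.000727. Over siStat3 it was 1.26 ± 0.38 (edgeR adjusted p = 0.0206), a call lost without siAtf4 replicate 4, siStat3 replicate 1 or siStat3 replicate 2 (0.0594, 0.0528 and 0.062). Ordered by mean level, Arg1 ran from siAtf4 (7.32 ± 1.21 CPM) and siRest (4.48 ± 1.98 CPM) to siStat3 (3.03 ± 0.55 CPM), and then siCONTROL, siAlyref, siJun, siKlf6 and siAtf3 between 2.16 and 1.60 CPM with overlapping libraries.

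**Figure D3:**
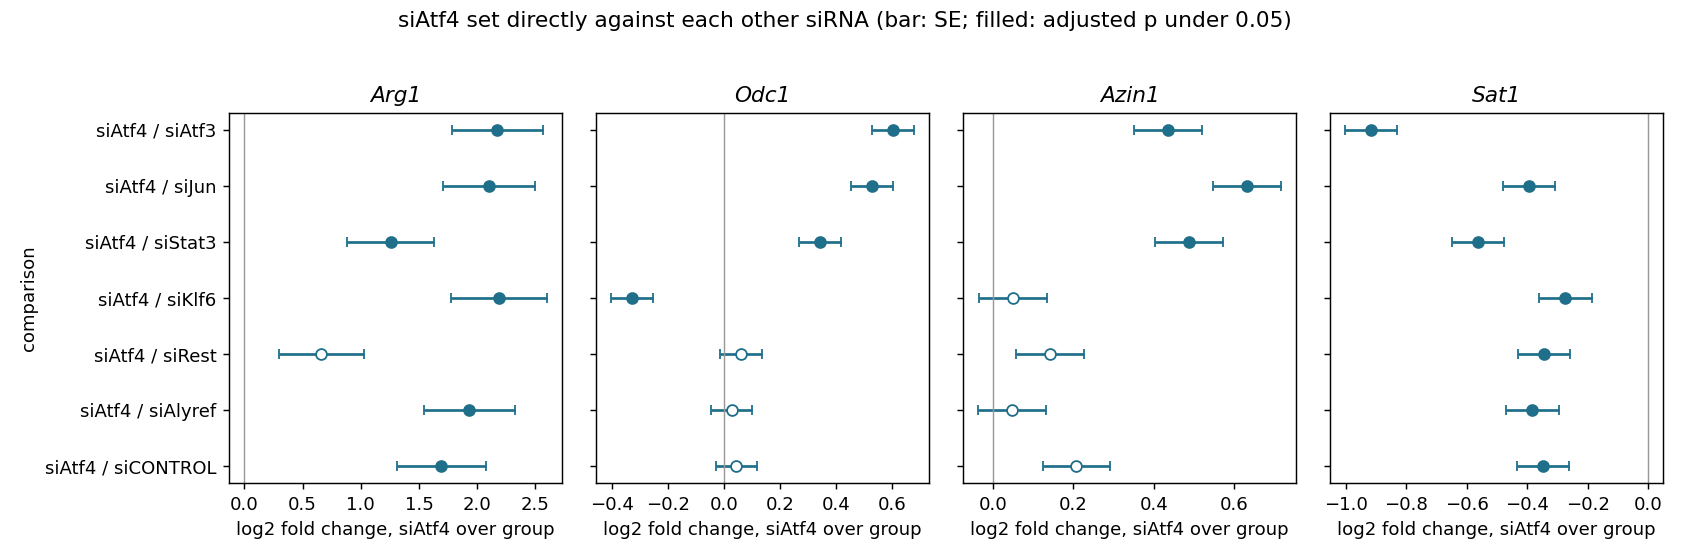
Fitted log2 fold change of siAtf4 over each other siRNA group (horizontal axis, one scale per gene) for Arg1, Odc1, Azin1 and Sat1; bars are SEs and filled dots have an adjusted p under 0.05. Arg1 lies above 0 and Sat1 below 0 in all 7 rows, while Odc1 lies above 0 against siAtf3, siJun and siStat3 and below 0 against siKlf6.

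The same direct comparisons separated siAtf4 from siAtf3, siJun, siStat3 and siKlf6 at the decarboxylase step, but not from siRest or siAlyref. Over siRest and siAlyref, Odc1 gave log2 0.06 ± 0.07 and 0.03 ± 0.07 (edgeR adjusted p = 0.733 and 0.878). Odc1 did not differ by the test between siAtf4 and siCONTROL (315, 283, 295 and 285 CPM in siAtf4 libraries, log2 0.04 ± 0.07), yet it was higher with siAtf4 than with siAtf3 (1.52-fold), siJun (1.44-fold) and siStat3 (1.27-fold) and lower than with siKlf6 (to 79.6%), with edgeR adjusted p of 2.93e-07, 4.01e-06, 0.00142 and 0.00299. Azin1 followed for the first 3, at 1.35-fold, 1.55-fold and 1.40-fold, and did not pass against siKlf6, siRest or siAlyref. Sat1 was lower with siAtf4 than with every other siRNA, to between 53.0% (siAtf3) and 82.7% (siKlf6), though against siKlf6 the call held in 4 of 13 alternatives only and against siRest in 12 of 13. The shares of all genes called in these contrasts were 22.9% against siAtf3, 18.6% against siJun, 15.5% against siStat3, 10.9% against siKlf6, 8.57% against siRest and 15.1% against siAlyref. In the same order, 7, 4, 5, 4, 3 and 6 of the 10 neuronal markers were called higher with siAtf4. Against siJun and siStat3, 1 each was called lower. The part of the marker differences in these contrasts was not tested.

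Of the aminopropyl steps, spermine synthase was the one called among the knockdowns. Sms (ENSMUSG00000071708.12) had 127, 125, 118 and 140 CPM in siAtf4 libraries, against 108, 87.8, 97.6 and 97.9 CPM in siCONTROL libraries. The groups did not overlap and the rise was 1.30-fold (log2 0.38 ± 0.08, edgeR adjusted p = 0.00199, called in 13 of 13 alternatives). Sms was also higher with siAtf4 than with each of the other 6 siRNAs, by 1.22-fold to 1.39-fold, the call against siKlf6 holding in 9 of 13 alternatives. Srm was not called in any knockdown, with group means of 86.5 to 98.7 CPM. Amd1 (ENSMUSG00000075232.7) was not called in any of the 17 comparisons, with group means of 67.1 to 83.3 CPM over all 12 groups. Its near-identical copy Amd2 averaged at most 1.33 CPM in any group. How reads shared by the copies were divided was not tested, so both values are uncertain.

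Arg2 (ENSMUSG00000021125.7), the mitochondrial arginase, rose where Cebpg mRNA was given with Atf4 mRNA. It had 11, 19.6, 7.75 and 15.9 CPM in libraries given both mRNAs, 1.54, 2.31, 1.10 and 0.765 CPM with Atf4 mRNA alone, and 0.419, 1.73, 0.413 and 1.37 CPM with GFP mRNA. The libraries given both mRNAs lay above all the others, from 24 to 97 expected counts against 2 to 12, and they alone carried the gene past the low-count filter. The rise was 13.3-fold over GFP mRNA (log2 3.73 ± 0.46, edgeR adjusted p = 7.05e-05) and 9.22-fold over Atf4 mRNA alone (log2 3.21 ± 0.44, edgeR adjusted p = 0.000699). Both calls held in 13 of 13 alternatives, which include the fit without the filter. Atf4 mRNA alone gave log2 0.53 ± 0.54 over GFP mRNA and did not pass (edgeR adjusted p = 0.659). That comparison rests on 2 to 12 expected counts per library and is not read as a result.

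Odc1 and Azin1 were lower with both mRNAs than with GFP mRNA. Of the 8 members tested 4 were called, Arg2 higher and Odc1, Azin1 and Srm lower, where 24.6% of all 13857 genes were called. Arg2 was tested only because the libraries given both mRNAs carried it past the filter, so that count is not read against the share. Odc1 had 270.9, 249.0, 242.6 and 249.4 CPM with both mRNAs, 302, 293, 267 and 289 CPM with Atf4 mRNA alone and 317, 395, 307 and 361 CPM with GFP mRNA. Both treated groups lay below all GFP libraries and overlapped each other in part. With both mRNAs Odc1 stood at 73.3% of GFP mRNA (log2 -0.45 ± 0.08, edgeR adjusted p = 0.00137), and with Atf4 mRNA alone it gave log2 -0.26 ± 0.08 (edgeR adjusted p = 0.0822).

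Azin1 had 268, 233, 196 and 207 CPM with both mRNAs, 243, 262, 233 and 247 CPM with Atf4 mRNA alone and 345, 281, 323 and 329 CPM with GFP mRNA. Again both treated groups lay below all GFP libraries. With both mRNAs it stood at 70.5% of GFP mRNA (log2 -0.50 ± 0.09, edgeR adjusted p = 0.00169). With Atf4 mRNA alone it was the 1 of 8 members called, where 4.84% of all genes were, at 77.1% of GFP mRNA (edgeR adjusted p = 0.0364), and that call was lost in 7 of 8 fits that each left out 1 library. Odc1 and Azin1 were not called between both mRNAs and Atf4 mRNA alone (edgeR adjusted p = 0.212 and 0.496), a comparison in which Arg2 was the 1 member of 8 called and 6.60% of all genes were. As Arg2 passed the filter only through the libraries given both mRNAs, this count is not read against the share either.

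The remaining members moved little with the mRNAs. Srm had 82.2, 77.2, 76.0 and 86.8 CPM with both mRNAs and 88.7, 109, 95.1 and 95 CPM with GFP mRNA, groups that did not overlap, and was called at 82.9% (edgeR adjusted p = 0.0403), a call that held in 3 of 13 alternatives. Oaz1, Amd1, Sms and Sat1 were not called in any of the 3 comparisons. Arg1 was below the filter here, at 0.88 ± 0.84 CPM with both mRNAs, 1.08 ± 0.18 CPM with Atf4 mRNA alone and 2.12 ± 0.66 CPM with GFP mRNA. Tested without the filter, it gave log2 -1.16 ± 0.63 for both mRNAs over GFP mRNA (edgeR adjusted p = 0.25) and log2 -0.95 ± 0.61 for Atf4 mRNA alone (edgeR adjusted p = 0.5).

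Markers of other cells also differed with both mRNAs. The 7 neutrophil markers summed to 26.2 to 41.9 CPM with both mRNAs, above the 8.01 to 15.8 CPM of GFP libraries, with 1 of the 2 that could be tested called higher, S100a9 at 0 with both mRNAs and Elane at 0 with GFP mRNA. The 8 endothelial and mural markers summed to 268 to 316 CPM with both mRNAs and 183 to 258 CPM with GFP mRNA, with 3 called higher and 0 lower. The 8 satellite glia markers summed to 432 to 547 CPM with both mRNAs and 579 to 645 CPM with GFP mRNA. Of these 8, 1 was called higher and 1 lower, and their median log2 fold change was 0.06, so the lower sum does not stand for the whole list. With Atf4 mRNA alone the satellite glia markers summed to 454 to 541 CPM, likewise below all GFP libraries. There 1 of 8 was called lower, and their median log2 fold change was 0.04. Synthetic Cebpg mRNA alone took 4.53% to 8.66% of all counts with both mRNAs. Genes above 0 numbered 17288, 20067, 19191 and 19499 in libraries given both mRNAs, and 17789, 18154, 17729 and 17508 in GFP libraries. The part of these values in the Arg2, Odc1 and Azin1 results was not tested.

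Ratios between members set these changes side by side within each library, as a description. The Odc1 level was 0.422 ± 0.024 of the Oaz1 level in siCONTROL libraries and 0.0718 ± 0.007 of it in t_0 libraries. Among the knockdowns it ran from 0.327 ± 0.0086 with siAtf3 to 0.554 ± 0.047 with siKlf6. The siAtf3, siJun and siStat3 libraries lay below and the siKlf6 and siRest libraries above all siCONTROL libraries. The Sat1 level was 1.11 ± 0.13 times the Odc1 level with siAtf3, 0.390 ± 0.056 times with siAtf4, 0.511 ± 0.062 times with siCONTROL and 1.94 ± 0.24 times at t_0. Only in siAtf3 and t_0 cultures did any library have more Sat1 than Odc1.

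**Figure D4:**
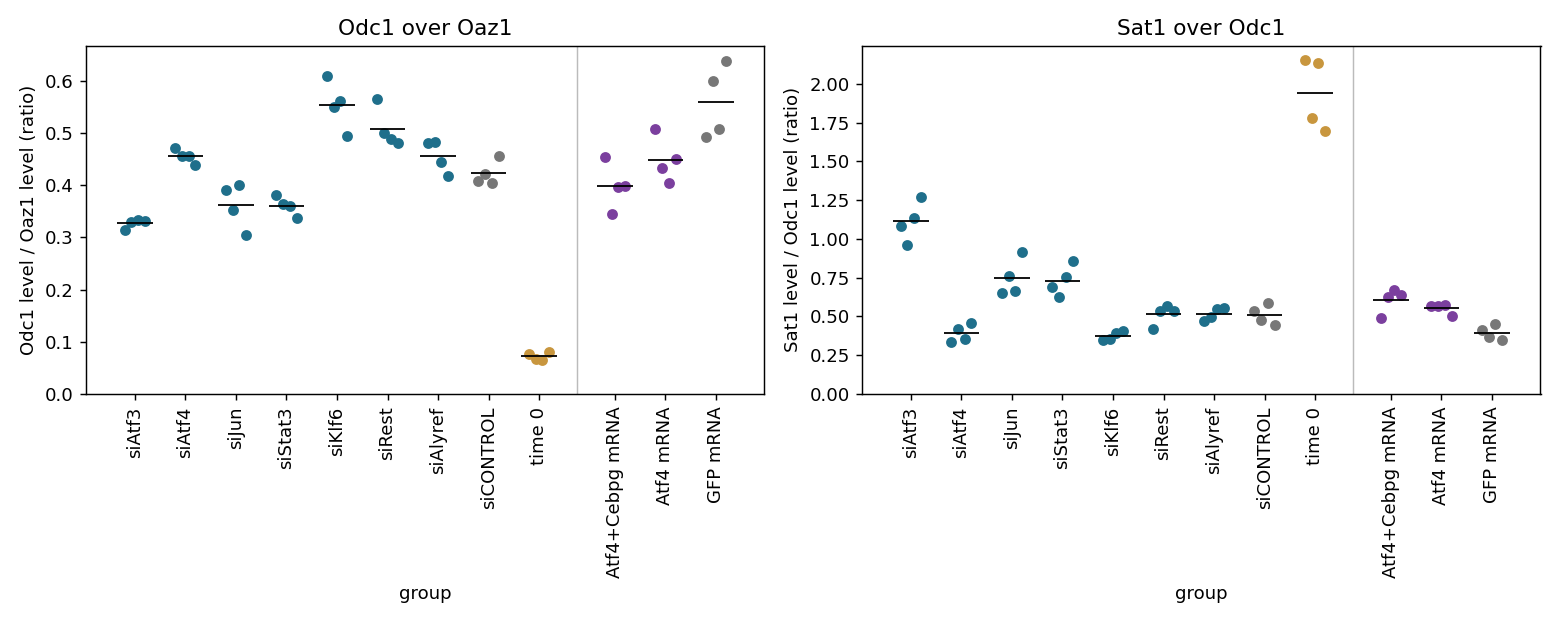
Ratio of Odc1 to Oaz1 level (left) and of Sat1 to Odc1 level (right) in each library, by group; dots are libraries, bars means of 4, and the vertical axes start at 0. The t_0 libraries have the lowest Odc1 to Oaz1 and the highest Sat1 to Odc1 ratios, and by group mean siAtf3 is next to them in both panels.

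Other genes of the pathway were read from lists of 15 further polyamine genes, 16 of arginine and ornithine metabolism, 10 of methionine supply and salvage and 8 factors known to act on the members. With siAtf4, where 6.91% of all genes were called, 3 of the 14 arginine and ornithine genes tested fell and 0 rose. Their median on the log2 scale was -0.22, against -0.001 over all genes. These were Slc7a1, the main cationic amino acid transporter (2.30-fold lower), Aldh18a1, which makes the precursor of proline and ornithine (3.26-fold lower), and Pycr1, which finishes proline (2.37-fold lower). The Slc7a1 mean was 50.8 ± 5.86 CPM with siAtf4 and 116.4 ± 7.96 CPM with siCONTROL (edgeR adjusted p = 1.59e-12).

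Of the 13 other polyamine genes tested with siAtf4, 0 rose and 2 fell, Slc3a2, the heavy chain of several amino acid transporters (1.41-fold), and the second antizyme gene Oaz2 (1.16-fold). Of the 10 methionine genes 2 fell, Slc7a5, the partner of Slc3a2 in large neutral amino acid uptake (2.77-fold), and Mtap, which recycles the by-product of spermidine and spermine synthesis (1.25-fold). Of the 8 factors 2 fell, Cebpb (1.94-fold) and Nfe2l2 (1.26-fold). Over all genes 6.91% were called with siAtf4.

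With siAtf3 and with siJun 3 of the 14 arginine and ornithine genes rose and 0 fell, namely Slc7a1 (1.37-fold with siAtf3 and 1.18-fold with siJun), Pycr1 (1.89-fold and 1.75-fold) and Ass1, argininosuccinate synthase, which rebuilds arginine from citrulline (1.33-fold and 1.67-fold). The median log2 fold changes of the list were 0.04 and -0.03, against 0.01 and 0.0005 over all genes. Over all genes 11.5% were called with siAtf3 and 7.78% with siJun. Of the 13 other polyamine genes 2 fell with siAtf3 and 3 with siJun: Atp13a2, the lysosomal polyamine exporter (1.32-fold with siAtf3 and 1.25-fold with siJun), the second antizyme inhibitor Azin2 (1.23-fold and 1.47-fold) and, with siJun, Atp13a3, a related polyamine transporter (1.39-fold). Nfe2l2 rose 1.28-fold with siAtf3, Stat6 1.23-fold and Adi1, of methionine salvage, 1.68-fold with siJun.

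The 4 other knockdowns gave 0 or 1 call in each of these lists. With siStat3 and siRest 0 genes of the 4 lists were called, where 3.03% and 0.202% of all genes were. With siKlf6, where 1.85% of all genes were called, 1 of the 10 methionine genes was, Slc7a5 (1.27-fold lower). With siAlyref, where 4.26% of all genes were called, 1 of 14 arginine and ornithine genes, 1 of 10 methionine genes and 1 of 8 factors were lower. These were Slc7a1 (1.33-fold), Slc7a5 (1.23-fold) and Myc (1.42-fold), a known activator of Odc1.

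With both mRNAs, where 24.6% of all genes were called, 3 of 14 arginine and ornithine genes rose over GFP mRNA and 0 fell. The median of that list was log2 0.20 against -0.003 over all genes. Cps1, carbamoyl phosphate synthetase of the urea cycle, had 5, 17, 13 and 17 expected counts with both mRNAs, 2, 4, 1 and 1 with Atf4 mRNA alone and 0 in all 4 GFP libraries. Every library given both mRNAs was above every other. Cps1 passed the low-count filter through the libraries given both mRNAs, so its test with Atf4 mRNA alone over GFP mRNA is not read as a result. Taking 3 counts over the GFP group as the floor, Cps1 was at least 22.1-fold higher with both mRNAs. The other calls were Oat, which links ornithine to glutamate and proline (1.34-fold), and Aldh18a1 (1.33-fold). Of the 13 other polyamine genes 0 rose and 4 fell: Eif5a, whose protein carries the spermidine-derived hypusine (1.31-fold), Azin2 (1.53-fold), the spermine oxidase Smox (1.47-fold) and Atp13a3 (1.49-fold). The median was log2 -0.15, and the counts of both lists are near the 24.6% called over all genes. Of the 10 methionine genes 1 rose and 3 fell, and of the 8 factors 0 rose and 1 fell. Their median log2 fold changes were -0.16 and -0.07.

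With Atf4 mRNA alone, Slc3a2 was 1.23-fold and Slc7a1 1.18-fold higher, while Eif5a was 1.21-fold and Ahcy, which clears S-adenosylhomocysteine, 1.56-fold lower. Between both mRNAs and Atf4 mRNA alone, Oat (1.30-fold) was higher and Azin2 (1.36-fold) and Mat2a, which makes S-adenosylmethionine (1.24-fold), were lower. Cps1 was 6.90-fold higher by the fit, but it passed the filter through the libraries given both mRNAs.

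In siCONTROL against t_0, where 57.9% of all genes were called, 7 of 13 other polyamine genes rose and 3 fell, Atp13a3 by 3.98-fold upward and Eif5a2 and Atp13a2 by 2.58-fold and 1.91-fold downward. Of the arginine and ornithine genes 3 rose and 5 fell of 13, Slc7a1 being 1.91-fold higher and Slc7a2, a second arginine transporter, Nos1, the neuronal nitric oxide synthase, and Ass1 being 3.93-fold, 3.66-fold and 1.60-fold lower. Of the methionine genes 4 rose and 4 fell, with Slc7a5 3.66-fold, Ahcy 3.63-fold and Mat2a 1.86-fold higher and Enoph1 1.87-fold lower. Of the 8 factors 6 rose and 1 fell, among them Trp53 (2.39-fold) and Creb1 (2.08-fold).

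Across the 8 siRNA groups at 42 h, the genes whose group means of log2 CPM ran most like those of 3 members were listed as a description. For Odc1 these were Chmp1b, of the membrane-scission machinery (r = 0.990), Wbp1 (0.969) and Efr3b (0.957). For Sat1 they were Rnf103, a ubiquitin ligase (0.980), Cr1l, a complement regulator (0.971) and 4732491K20Rik (0.968). For Arg1, whose low counts make the order of most groups uncertain, they were Safb (0.951), Gm33024 (0.948) and Gm3468 (0.942). Each r is over 8 group means that share 1 table and its scaling.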

How the data were processed

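RNA was measured by poly(A) RNA sequencing in 48 libraries of 12 groups, assigned by their treatment label. The authors deposited 2 tables of expected counts per gene (34183 genes each), for which the submitters' processing notes name kallisto and GRCm39. Which kallisto version, annotation and scaling were used is not given in the sources used here. In 3003 single-transcript genes of at least 2000 bp, 78.9% to 96.0% of a library's small values, multiplied by transcript length, lay within 4% of one constant between 1900 and 2195 bp. The deposited values were thus read as length-weighted: a read in a short transcript adds more than 1 count, which the count model does not know. Fold changes keep their meaning apart from shifts between isoforms. All 48 columns were matched by name and 0 were left unused. Totals ran from 1539198 to 6621566, and intervals were not given because values are not whole reads. GENCODE gave symbols to 32470 identifiers, and promoters and their coordinates are RefSeq's on GRCm38.p6.

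Expected counts were rounded, filtered with filterByExpr, scaled by TMM and tested with edgeR 4.0.16 (quasi-likelihood, R 4.3.3) in 3 fits: 8 siRNA groups (14876 genes), 3 mRNA groups (13857) and siCONTROL with t_0 (13448), with Benjamini-Hochberg adjustment over all genes of a fit and a threshold of 0.05. SE is the log2 fold change over the square root of F. CPM levels used TMM factors over each whole table, so ratios of means can differ slightly from fitted folds. The tables were scaled separately, so no test crosses them. Simulated counts were put through the siAtf4 over siCONTROL, Atf4 mRNA over GFP mRNA and siCONTROL over t_0 comparisons, in that order. With log2 changes of 1.0 they recovered 67, 68 and 66 of 100 changed genes. With changes of 0.5 they recovered 25, 22 and 21 of 100. Far fewer genes were changed there than were called in the real comparisons, 57.9% of all genes for siCONTROL over t_0. This recovery may therefore not hold for the real comparisons.

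Named genes were the 9 members, and up to 4 called genes of each companion list with the smallest adjusted p. Members and lists were chosen with earlier results of these data known. Alternatives were RLE size factors, no filter, DESeq2 1.42.0, a replicate block, the 2 groups alone, and leaving out each library. For siCONTROL over t_0, all 9 groups together took the place of the 2 groups alone.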

Additional observations from a re-analysis of the deposited data

Results flagged for a closer look

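In each of 108 sets of 4 libraries (9 genes in 12 groups) the highest and lowest library were set against the other 3, and 5 stood apart by Dixon's test, where chance alone gives about 1 in 20. Arg2 was 2.30 CPM in siAlyref replicate 2, from 9 expected counts, and 0.169 to 0.451 CPM in the other 3. Azin1 was 260.7 CPM in siAtf3 replicate 3, below the 298.9 to 302.1 CPM of the others, and Azin1 was not called in that comparison. Azin1 was 303.7 CPM in siRest replicate 4, below the 369.4 to 380.4 CPM of the others. Amd1 was 78.3 CPM in siJun replicate 3, above the 65.3 to 67.0 CPM of the others. Sat1 was 130.5 CPM in siKlf6 replicate 2, below the 139.8 to 141.1 CPM of the others.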

How the results depend on the processing

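Of 221 recomputed counts of members called, 200 stayed within 1.5 times the reported count. Of 689 recomputed results of single members, 633 kept direction and side of the threshold, 46 fell short of it, 10 newly passed it and 0 reversed. For siStat3 the count of 1 became 2 with DESeq2 and 0 with the 2 groups alone, and 0 to 2 with 1 library left out. For siKlf6 and siRest the count of 1 became 0 with the 2 groups alone, and for siRest it was 0 to 1 with 1 library left out. For siAtf4 over siKlf6 the count of 4 became 2 with the 2 groups alone, and 2 to 4 with 1 library left out. For Atf4 mRNA over GFP mRNA the count of 1 became 2 with DESeq2 and 2 with the replicate block, and 0 to 1 with 1 library left out. The causes were not tested.

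Same-numbered libraries correlated weakly in their deviations, at 0.012 to 0.178, and in no comparison did every pair exceed 0.1. The main fits therefore did not pair the samples, which may miss a shared effect. In each mRNA comparison 4 of 4 libraries correlated best with their own number, and in the others 2 to 4 did. With a replicate block, genes called for Atf4 mRNA over GFP mRNA went from 382 higher and 289 lower to 509 and 519. What the numbers stand for is not given in the labels. The replicate block changed 3 of 53 single-member calls. Depth limits both arginases, which had 0 to 18 expected counts in most libraries.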
